A study of Bos taurus with 24 samples.

Results

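The genes described here are 8 canonical transcriptional targets of p53, taken by symbol from a list of such targets that includes SFN. They were CDKN1A, MDM2, SFN, CCNG1, SESN1, ZMAT3, GADD45A and PERP, and all 8 were found among the 24621 genes listed for early bovine blastocysts. No measured value was used by the rule that chose them, although the list was drawn up with earlier results of these data known.

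The protein p53 is a transcription factor that is held at a low level in unstressed cells and is stabilised by DNA damage and other stress. Its targets halt the cell cycle (CDKN1A, SFN, CCNG1, GADD45A), limit oxidative and metabolic stress (SESN1), take part in cell death (PERP) or feed back on p53 itself (MDM2, CCNG1, ZMAT3). Several of them are also used outside the stress response: SFN and PERP are expressed in epithelia, where SFN encodes a 14-3-3 adaptor protein and PERP a membrane protein of desmosomes. In the blastocyst the first epithelium is the trophectoderm, the outer layer that surrounds the inner cell mass and later forms the fetal part of the placenta.

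Single Holstein embryos were sequenced, and each embryo was 1 replicate. The 8 in vivo derived embryos (5 male and 3 female) were flushed a week after insemination from superovulated cows that had received semen of the bull also used for the in vitro fertilisations. The donor cows were fewer than the embryos, so some of these embryos had the same mother. The in vitro embryos came from 3 experiments and were collected between day 6 and 7 after insemination, so that age may differ between the groups. In both in vitro conditions the oocytes came from slaughterhouse ovaries and the embryos were cultured in synthetic oviduct fluid. The 8 embryos of the serum condition (3 male and 5 female) had fetal bovine serum both during maturation and during culture. The 8 embryos of the serum-free condition (5 male and 3 female) were matured with EGF and cultured with albumin and insulin-transferrin-selenium in place of serum. All of them were early blastocysts of the best morphological grade. In vivo derived embryos carry the letter A in their names, those of the serum condition B and those of the serum-free condition C. The sources used here tie no embryo to a sequencing lane, a donor cow or an in vitro experiment, so none of these can be told apart from the culture condition, and p-values measure only the spread between the embryos.

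Fragments mapped uniquely to exons numbered between 3253051 and 9000447 per embryo, with a median of 4454031. Counts were scaled to the size of each library with the TMM method of edgeR and are given as CPM, and they are not compared between genes, since gene lengths were not used. Testing a gene required 15 or more counts in all embryos of either group. A gene that is low in 1 group can therefore be tested through the other alone, as SFN was against the serum condition. Such a gene is more readily called as higher in the group that admitted it. A gene is written as called when the Benjamini-Hochberg adjusted p-value of edgeR's quasi-likelihood test was under 0.05 and the change was at least 2-fold. Each log2 fold change is given with its standard error, and a positive value is higher in the group named first. The comparisons share embryos (the in vivo derived embryos enter 2 of them, and so do those of the serum and of the serum-free condition), so their results are not independent. The RNA of whole embryos was sequenced, and fewer cells of a type and less RNA per cell cannot be told apart.

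The plot of levels by embryo gives all 24 values of each gene. SFN and PERP were lower in embryos of the serum condition than in either of the other conditions. MDM2 and SESN1 were called as higher in embryos of the serum-free condition than in vivo, but these calls were not stable. Of the 16 fits that left out 1 embryo, 10 kept the call of MDM2 and 5 that of SESN1, and some other settings lost both. CCNG1 was higher in the serum condition than in vivo by less than 2-fold, and its smaller difference from the serum-free condition passed the test in some settings and failed it in others. GADD45A was called in no comparison, and CDKN1A in none that it entered at the count limit. CDKN1A did not reach that limit between in vivo derived embryos and the serum condition, and ZMAT3 reached it in no comparison, so these are not negative results.

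**Figure D1:**
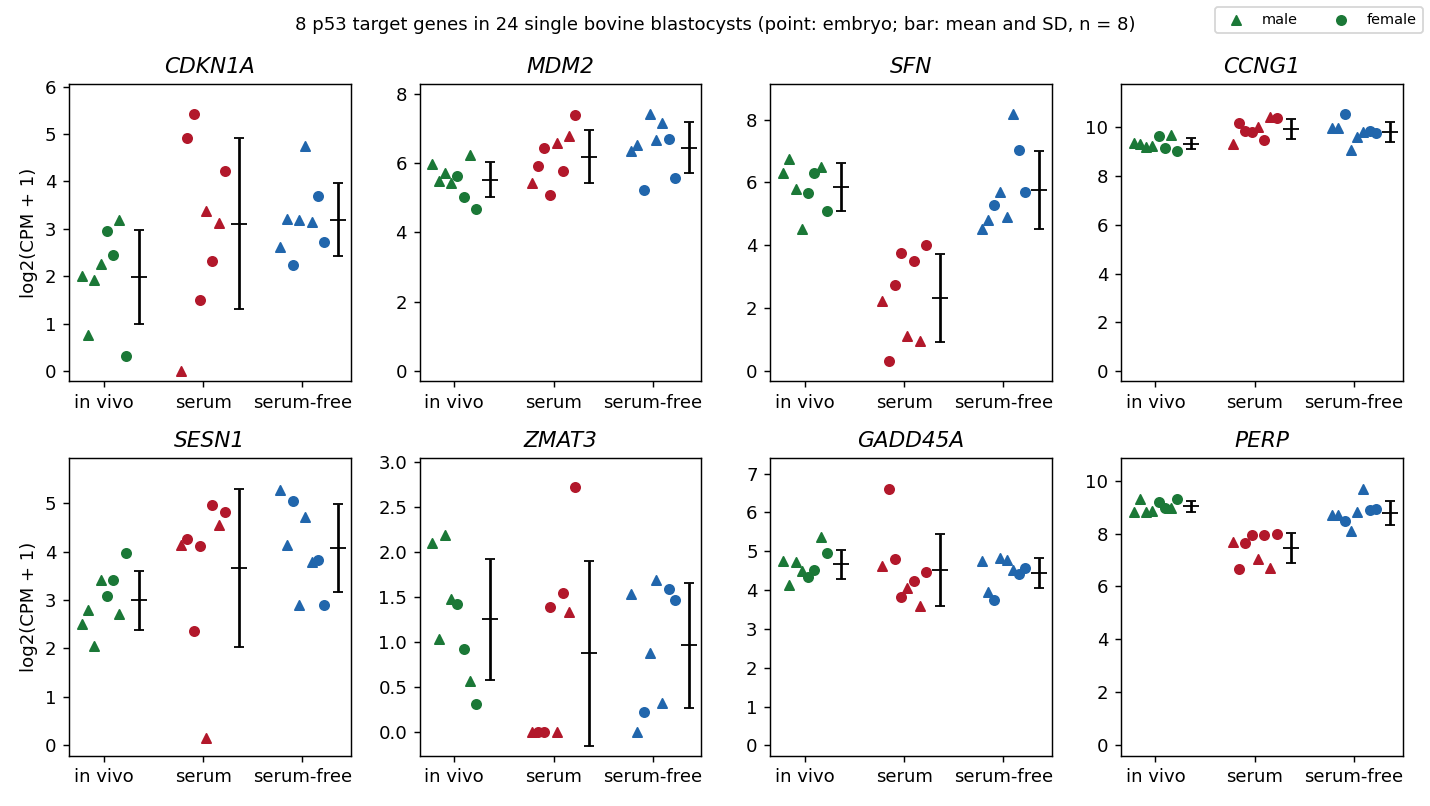
Level of the 8 p53 target genes in each of 24 embryos, as log2(CPM + 1) on the vertical axis, for the in vivo, serum and serum-free conditions (triangles: male embryos, circles: female embryos, bars: mean and SD of 8 embryos). SFN and PERP lie lower in all 8 embryos of the serum condition than in any other embryo, while the conditions overlap for the other 6 genes.

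In in vivo derived embryos against embryos of the serum condition, 6 of the 8 genes were tested and 2 were called, SFN and PERP, both higher in vivo. Of all genes tested in this comparison 13.8% were called, and 7.34% were called as higher in vivo. The groups did not overlap for either gene, and 3.91% of the genes tested had every in vivo derived embryo above every embryo of the serum condition. The median log2 fold change of the 6 genes tested was -0.40, beside -0.01 over all genes tested, and the other 4 genes had negative fold changes, of which that of GADD45A turned positive without 1 embryo, B2.

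SFN encodes 14-3-3 sigma, which binds phosphorylated partners, keeps CDK1 out of the nucleus at the G2 checkpoint and is abundant in epithelia. The lowest in vivo derived embryo had 21.8 CPM of SFN, the median was 65.5 CPM and the highest had 106 CPM. The lowest embryo of the serum condition had 0.234 CPM, which was 1 count, the median was 4.71 CPM and the highest had 15 CPM. The lowest embryo of the serum-free condition had 21.7 CPM, the median was 44.1 CPM and the highest had 286 CPM. All 8 embryos of the serum condition were below all 16 others, and within the serum condition B8, B4 and B6 were highest and B2, B7 and B5 lowest. SFN was 10.2-fold higher in in vivo derived embryos than in the serum condition, with a log2 fold change of 3.35 ± 0.58 (edgeR adjusted p = 0.000589). It was 12.7-fold higher in the serum-free than in the serum condition, with a log2 fold change of 3.67 ± 0.71 (edgeR adjusted p = 0.0048). Between in vivo derived embryos and the serum-free condition the log2 fold change was -0.31 ± 0.46 (edgeR adjusted p = 0.753), and it was 0.36 without C7, the embryo with 286 CPM. Without C7 the log2 fold change between the serum-free and the serum condition was 2.96, and the gene was still called.

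PERP encodes a tetraspan membrane protein that takes part in p53-dependent cell death and is needed for desmosomes in stratified epithelia. In in vivo derived embryos it ranged from 445 to 632 CPM with a median of 503 CPM. Embryos of the serum condition had between 101 and 249 CPM with a median of 201 CPM. Embryos of the serum-free condition had between 276 and 824 CPM with a median of 433 CPM. Every embryo of the serum condition lay below every other embryo, and B2, B7 and B5 were again the lowest while C7 was again the highest. The log2 fold change of PERP was 1.51 ± 0.20 between in vivo derived embryos and the serum condition, which is 2.86-fold (edgeR adjusted p = 6.67e-05). It was 1.33 ± 0.24 between the serum-free and the serum condition, which is 2.52-fold (edgeR adjusted p = 0.00341). Between in vivo derived embryos and the serum-free condition it was 0.19 ± 0.16 (edgeR adjusted p = 0.554). The spread of PERP was narrow in vivo, where the SD was 14.7% of the mean, and wider in the serum condition (34.8%) and in the serum-free condition (35.2%).

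In the serum-free against the serum condition, 7 of the 8 genes were tested and 2 were called, again SFN and PERP, both higher without serum and both with groups that did not overlap. In this comparison 8.91% of the genes tested were called, 5.36% were called as higher without serum, and 1.59% had every embryo of the serum-free condition above every embryo of the serum condition. The median log2 fold change of the 7 genes was 0.18, beside -0.02 over all genes tested.

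In in vivo derived embryos against the serum-free condition, 7 genes were tested and 2 were called, MDM2 and SESN1, both lower in vivo. Of all genes tested 2.2% were called, and 1.61% were called as lower in vivo. The median log2 fold change of the 7 genes was -0.53, beside 0.00 over all genes tested. None of the 8 genes had groups that did not overlap in this comparison, as 0.396% (higher in vivo) and 0.547% (lower in vivo) of the genes tested had.

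**Figure D2:**
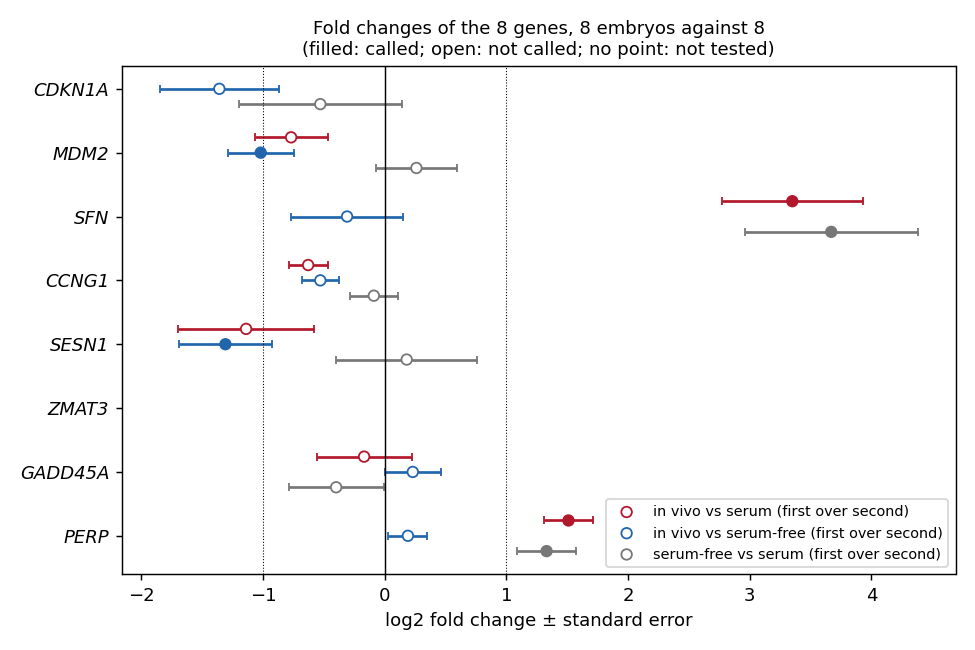
Log2 fold change with its standard error on the horizontal axis for each of the 8 p53 target genes in 3 comparisons of 8 embryos against 8 (filled points: called, open points: not called, dotted lines: 2-fold, no point: not tested). SFN reached 3.35 and 3.67 and PERP 1.51 and 1.33 in the comparisons with the serum condition, and MDM2 and SESN1 had -1.02 and -1.31 between in vivo derived embryos and the serum-free condition.

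MDM2 encodes the ubiquitin ligase that marks p53 for degradation and is itself induced by p53. In vivo derived embryos had between 24.5 and 74.1 CPM of MDM2 with a median of 45.7 CPM. Embryos of the serum-free condition had between 36 and 168 CPM with a median of 95.8 CPM. Embryos of the serum condition had between 32.7 and 167 CPM with a median of 72.6 CPM. The groups overlapped, since the lowest embryos of the serum-free condition, C3 and C10, lay within the range of the in vivo derived embryos, but the other 6 were above all of them. MDM2 was 2.03-fold lower in vivo than in the serum-free condition, with a log2 fold change of -1.02 ± 0.27 (edgeR adjusted p = 0.0312). Against the serum condition the log2 fold change was -0.77 ± 0.30 (edgeR adjusted p = 0.0632), and between the culture conditions it was 0.26 ± 0.33 (edgeR adjusted p = 0.619). The call against the serum-free condition lay close to both limits: it was kept in 10 of the 16 fits that left out 1 embryo, with log2 fold changes between -1.16 and -0.87, and it was lost without A2, A4, A7, A9, C4 or C7. Its paralog MDM4, which inhibits p53 without degrading it, had 24.3 ± 7.41 CPM in vivo, 32.5 ± 15.6 CPM in the serum condition and 31 ± 5.94 CPM in the serum-free condition (SD, n = 8) and was called in no comparison.

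SESN1 encodes sestrin 1, which lowers oxidative stress and restrains mTORC1. In vivo derived embryos had between 3.16 and 14.7 CPM with a median of 6.70 CPM. Embryos of the serum-free condition had between 6.44 and 37.5 CPM with a median of 14.8 CPM. Embryos of the serum condition had between 0.115 and 30.1 CPM with a median of 17.3 CPM, and the lowest of them, B5, had 1 count. All 3 groups overlapped, and the lowest embryos of the serum-free condition, C10 and C4, were below the median of the in vivo derived embryos. SESN1 was 2.48-fold lower in vivo than in the serum-free condition, with a log2 fold change of -1.31 ± 0.38 (edgeR adjusted p = 0.0465). This call was kept in 5 of the 16 fits that left out 1 embryo, with log2 fold changes between -1.54 and -1.11 and adjusted p-values of edgeR's test between 0.031 and 0.094. Against the serum condition the log2 fold change was -1.14 ± 0.56 (edgeR adjusted p = 0.133), and without B5 it was -1.37 and the gene was called (edgeR adjusted p = 0.0138). It was called as well among the embryos with shared replicate numbers, a set chosen after the data were seen, with -1.54 (edgeR adjusted p = 0.01). Of its paralogs, SESN2 had 5.23 ± 3.29 CPM in vivo, 12 ± 9.16 CPM in the serum condition and 10.5 ± 6.08 CPM in the serum-free condition (SD, n = 8) and was not called, and SESN3 had too few counts for a test.

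CCNG1 encodes cyclin G1, a cyclin that brings the phosphatase PP2A to MDM2. In vivo derived embryos had between 528 and 821 CPM with a median of 614 CPM, those of the serum condition between 633 and 1380 CPM with a median of 977 CPM, and those of the serum-free condition between 531 and 1480 CPM with a median of 916 CPM. In vivo derived embryos were the least spread, and the ranges overlapped in every pair of conditions. CCNG1 was 1.55-fold lower in vivo than in the serum condition, with a log2 fold change of -0.63 ± 0.16 (edgeR adjusted p = 0.0082), and 1.45-fold lower than in the serum-free condition, with a log2 fold change of -0.53 ± 0.15 (edgeR adjusted p = 0.0436). Both passed the adjusted p-value and neither reached 2-fold, so the gene was not called. Against the serum-free condition the adjusted p-value of edgeR's test was under 0.05 in 5 of the 16 fits that left out 1 embryo (highest 0.0716) and reached 0.141 over the other alternatives. Against the serum condition it was under 0.05 in all 16 such fits and reached 0.0731 with the replicate block. Between the culture conditions the log2 fold change was -0.09 ± 0.20 (edgeR adjusted p = 0.785).

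CDKN1A encodes p21, the inhibitor of cyclin-dependent kinases through which p53 arrests cells in G1. It was low and variable, with between 0.240 and 8.15 CPM and a median of 3.41 CPM in vivo, between 0 and 41.6 CPM and a median of 8.52 CPM in the serum condition, and between 3.72 and 25.8 CPM and a median of 8.01 CPM in the serum-free condition. The embryo at 0 was B1, in which 3 counts, the limit that a count of 0 allows, correspond to 0.858 CPM, and the highest were B3 and B2, so that the serum condition held both ends of the range. Its SD was 106% of the mean there, beside 72.9% in vivo and 73.5% in the serum-free condition. CDKN1A was not tested between in vivo derived embryos and the serum condition, because 4 embryos of the former and 2 of the latter had under 15 counts. With all genes of at least 1 count admitted, the log2 fold change was -1.85 ± 0.73 and was not called by edgeR's quasi-likelihood test (adjusted p = 0.104), while DESeq2 gave -1.90 and called it (adjusted p = 0.046). Against the serum-free condition the log2 fold change was -1.36 ± 0.49 (edgeR adjusted p = 0.107). A difference of this size was therefore not resolved from the spread between embryos at these counts. Its relative CDKN1B had 80.5 ± 19.4 CPM in vivo, 75.3 ± 31.7 CPM in the serum condition and 83.2 ± 14.5 CPM in the serum-free condition (SD, n = 8) and was called in no comparison.

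GADD45A encodes a stress sensor that binds PCNA and the CDK1 complex. In vivo derived embryos had between 16.5 and 40.3 CPM with a median of 23.7 CPM, those of the serum condition between 11 and 96.6 CPM with a median of 19.5 CPM, and those of the serum-free condition between 12.3 and 27.3 CPM with a median of 22.3 CPM. The medians lay close together, and 1 embryo of the serum condition, B2, stood far above all others. The log2 fold change between in vivo derived embryos and the serum condition was -0.17 ± 0.39 (edgeR adjusted p = 0.766), and without B2 it was 0.43. GADD45B was tested in all 3 comparisons and GADD45G in 2, and neither was called.

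ZMAT3 encodes a zinc finger protein that binds RNA. It was at the edge of detection, with at most 5.59 CPM (31 counts, in B8), under 15 counts in 22 of the 24 embryos and no counts in 4 embryos of the serum condition and 1 of the serum-free condition. Over the embryos, 3 counts correspond to between 0.344 and 0.918 CPM. ZMAT3 did not reach the count limit in any comparison. With all genes of at least 1 count admitted, its log2 fold changes were 0.26 ± 0.97 between in vivo derived embryos and the serum condition (edgeR adjusted p = 0.895), 0.51 ± 0.77 against the serum-free condition (edgeR adjusted p = 0.81) and -0.25 ± 1.07 between the culture conditions (edgeR adjusted p = 0.927), and DESeq2 called none of them either.

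Among the 14-3-3 genes, the relatives of SFN, 5 were listed and tested (YWHAB, YWHAE, YWHAG, YWHAQ and YWHAZ), and none was called in any comparison of all embryos. In in vivo derived embryos against the serum condition their log2 fold changes were between 0.12 and 0.39, beside 3.35 for SFN. YWHAZ, for example, had 168 ± 33.3 CPM in vivo, 129 ± 46 CPM in the serum condition and 165 ± 31.4 CPM in the serum-free condition (SD, n = 8). Over all paralogs of the 8 genes, 0 of 8 tested were called against the serum condition and 0 of 10 against the serum-free condition by edgeR's test. Of all genes tested, 13.8% and 2.2% were called in these comparisons.

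The comparison was repeated within each sex. In male embryos SFN had 78.7, 106, 54.1, 21.8 and 89.2 CPM in the 5 in vivo derived embryos and 3.72, 1.15 and 0.918 CPM in the 3 embryos of the serum condition. In female embryos it had 49.7, 77 and 32.9 CPM in the 3 in vivo derived embryos and 0.234, 5.71, 12.6, 10.3 and 15 CPM in the 5 of the serum condition. The serum values were lower than the in vivo values in both sexes, and 4 of the 5 female embryos of the serum condition were above every male one. The log2 fold change of SFN was 5.25 ± 0.67 in male embryos (edgeR adjusted p = 0.000857) and 2.58 ± 0.75 in female embryos (edgeR adjusted p = 0.12). That of PERP was 1.79 ± 0.24 in male embryos (edgeR adjusted p = 0.00114) and 1.43 ± 0.28 in female embryos (edgeR adjusted p = 0.0612). Thus 2 of the 8 genes were called in male embryos, where 13.3% of the genes tested were called, and 0 in female embryos, where 0.418% were. At an unadjusted p under 0.05, SFN, PERP, MDM2 and CCNG1 passed in female embryos, as did 21.1% of the genes tested, and both edgeR's exact test and DESeq2 called SFN and PERP in them. The difference between the sexes was tested as an interaction of sex and culture. For SFN it was 2.62 ± 1.07 on the log2 scale (edgeR adjusted p = 0.911) and for PERP 0.32 ± 0.38 (edgeR adjusted p = 0.998). SFN passed an unadjusted p under 0.05 and PERP did not. Of all genes, 0 were called in this interaction by edgeR, 436 had an unadjusted p under 0.05 and DESeq2 called 14. Neither SFN nor PERP was shown to respond to serum differently in male and female embryos.

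Against the serum-free condition, 1 of the 8 genes was called in male embryos, where 0.966% of the genes tested were called. It was MDM2, with 62, 43.4, 51.9, 41.5 and 74.1 CPM in the in vivo derived male embryos and 79.7, 91.1, 168, 101 and 141 CPM in those of the serum-free condition. Its log2 fold change was -1.11 ± 0.24 in male embryos (edgeR adjusted p = 0.0355) and -0.83 ± 0.42 in female embryos (edgeR adjusted p = 0.407), and the interaction of sex and serum-free culture was -0.27 ± 0.47 (edgeR adjusted p = 0.948). In that interaction 0 of all genes were called by edgeR, 555 had an unadjusted p under 0.05 and DESeq2 called 5. The call in male embryos was kept in 2 of the 10 fits that left out 1 of them. In female embryos 0 of the 8 genes were called by edgeR's quasi-likelihood test and 0.304% of the genes tested were; CCNG1 was the member with an unadjusted p under 0.05 there, as 14% of the genes tested had, and edgeR's exact test and DESeq2 called none of the 8.

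Between male and female embryos of the same condition, 0 of the 8 genes were called by edgeR's quasi-likelihood test, and edgeR's exact test and DESeq2 called none either. The shares of all genes tested that were called were 0.653% in vivo, 0.173% in the serum condition and 0.139% in the serum-free condition. MDM2 was the member with an unadjusted p under 0.05: its log2 fold change of male over female embryos was 0.65 ± 0.28 in vivo (edgeR adjusted p = 0.326) and 0.91 ± 0.37 in the serum-free condition (edgeR adjusted p = 0.573). Of all genes tested 13.5% and 8.01% had such a p-value in these conditions, so a single member is near the background. SFN was not tested between the sexes within the serum condition, where 4 of 8 embryos had under 15 counts.

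The 8 genes varied together only in part. Over the 24 embryos the Pearson correlation of log2(CPM + 1) was 0.93 between SFN and PERP and 0.66 between MDM2 and CDKN1A. After the mean of each condition was subtracted, it was 0.76 and 0.57. Both are descriptions over embryos that share the scaling of their libraries. The correlation of SFN and PERP was 0.97 among the 8 embryos of the serum condition, 0.68 in the serum-free condition and 0.10 in vivo, whereas that of MDM2 and CDKN1A was 0.62, 0.53 and 0.62 in the same order. SFN and PERP had correlations between -0.24 and 0.28 with the other 6 genes after subtraction of the condition means.

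**Figure D3:**
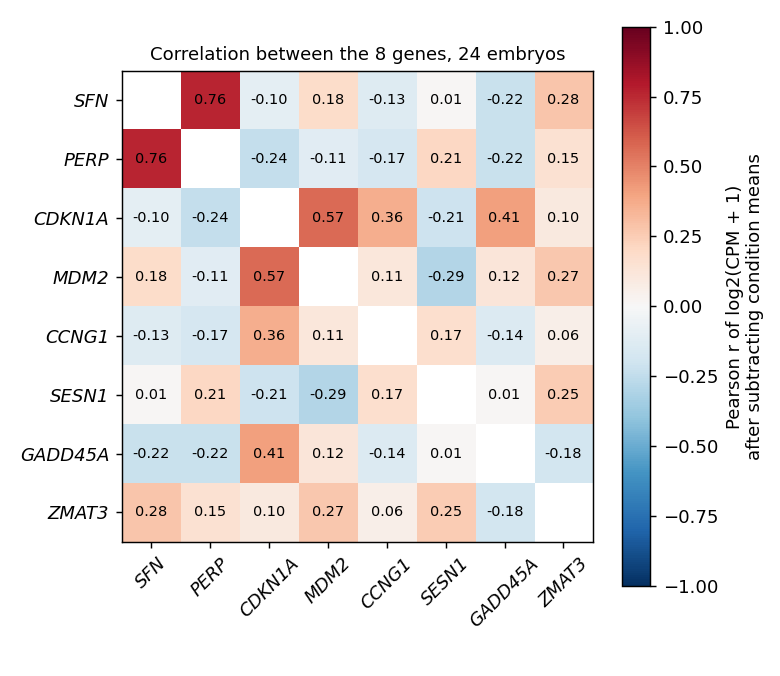
Pearson correlation between the 8 p53 target genes over 24 embryos, computed on log2(CPM + 1) after subtracting the mean of each condition (red: positive, blue: negative, scale from -1 to 1). SFN and PERP had the highest value, 0.76, followed by CDKN1A and MDM2 with 0.57.

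Of 6876 genes with a mean of at least 10 CPM, the 5 most like SFN over the 24 embryos were KRT18, ENSBTAG00000047000, KRT8, PLLP and LGALS1, with correlations between 0.94 and 0.96. KRT18 and KRT8 encode the keratin pair of simple epithelia and are markers of the trophectoderm. After the condition means were subtracted, KRT18 was still the most like SFN, with 0.87 (0.79 in vivo, 0.87 in the serum and 0.96 in the serum-free condition), followed by TAGLN2, LGALS1, ENSBTAG00000047000 and LDHA with 0.83 to 0.85. The 5 most like PERP were CD151, CRIP1, ARHGDIA, ACTG1 and TAGLN2, with 0.94 to 0.95, and after subtraction ACTG1, CYB5R3, ARHGDIA, TAGLN2 and CD151 with 0.82 to 0.85. The genes most like MDM2 reached lower values, with 0.72 for CFL2, 0.69 for PSRC1 and 0.64 to 0.66 for AKAP11, PARK7 and NTAN1. Those most like SESN1 were RNF19A, STK25, LACTB2, PUS7L and SRI, with 0.62 to 0.67. After subtraction PSRC1, DNAJC21, CALD1, KDELR2 and NTAN1 had 0.64 to 0.68 with MDM2, and STK25, SLC27A1, OXCT1, SLC17A5 and VEZF1 had 0.73 to 0.83 with SESN1.

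**Figure D4:**
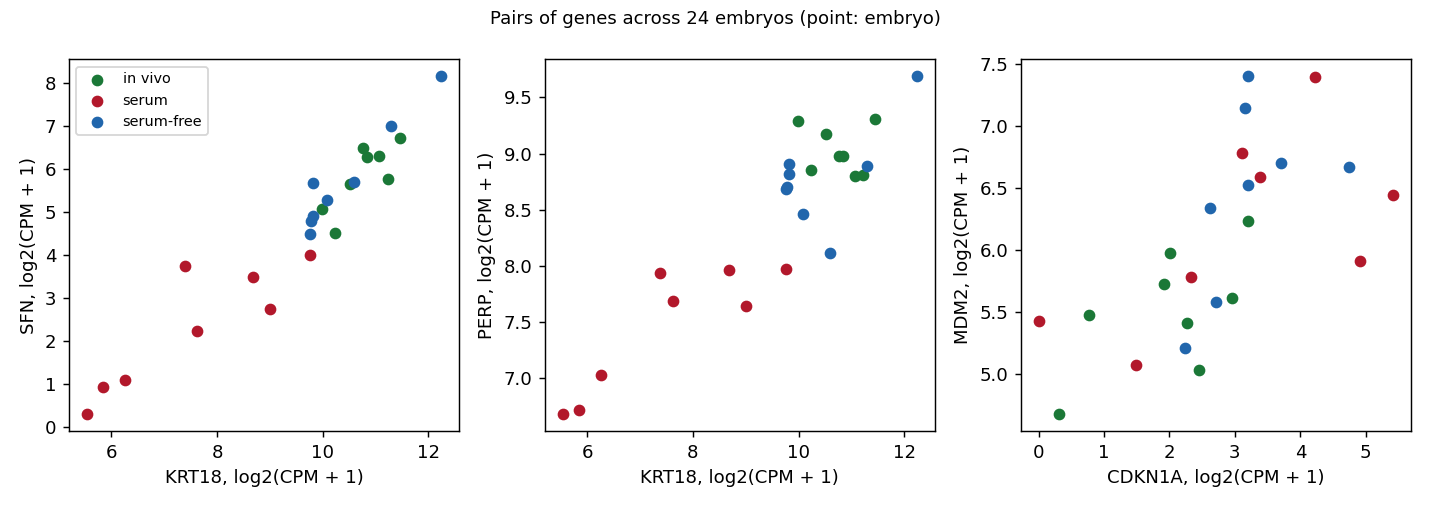
Levels of gene pairs in 24 embryos, both axes as log2(CPM + 1): SFN against KRT18, PERP against KRT18, and MDM2 against CDKN1A (points: embryos, coloured by condition). Over 24 embryos the correlation was 0.96 for SFN, 0.91 for PERP and 0.66 for MDM2 with CDKN1A. Within conditions PERP and KRT18 had -0.18 in vivo, 0.87 in the serum and 0.61 in the serum-free condition.

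Keratin markers of the trophectoderm were low in the same embryos as SFN and PERP. The summed level of the 10 listed trophectoderm markers was between 8070 and 15400 CPM in vivo, between 360 and 5780 CPM in the serum condition and between 5820 and 29100 CPM in the serum-free condition, where C7 was highest. KRT8 and KRT18 together made up 91.8% of this sum in vivo, 68.9% in the serum condition and 90.1% in the serum-free condition, so it is mostly a measure of the keratins already found most like SFN. Within the serum condition B2, B5 and B7 had the lowest sums, as they had the lowest levels of SFN and PERP. Against the serum condition 5 of 7 trophectoderm markers tested were called, all higher in vivo (GATA2, GATA3, KRT8, KRT18 and DAB2), as were 7.34% of all genes tested. The median log2 fold change of the 7 was 1.88. The other 2, TEAD4 and TFAP2C, lay in the other direction and were not called, with log2 fold changes of -0.71 ± 0.32 (edgeR adjusted p = 0.105) and -0.32 ± 0.22 (edgeR adjusted p = 0.292). KRT18 changed by 2.66 ± 0.51 and KRT8 by 3.05 ± 0.67 on the log2 scale, beside 3.35 for SFN and 1.51 for PERP. Of the desmosome and epithelial junction genes, 6 of 15 tested were called, all higher in vivo (DSP, JUP, EPCAM, CLDN4, CLDN7 and OCLN), with a median of 0.98. DSC3 and PKP1, too low to be tested, lay in the other direction. Their means were 0.925 and 0 CPM in vivo and 8.94 and 1.33 CPM in the serum condition, while every other listed junction gene had a higher mean in vivo. The same lists had 5 of 7 and 4 of 14 called as higher in the serum-free than in the serum condition, as were 5.36% of all genes tested. Between in vivo derived embryos and the serum-free condition 0 of 7 and 0 of 15 were called by edgeR's test, beside 2.2% of all genes tested. CDX2, a defining trophectoderm factor, was near the limit of detection in all conditions, with means of 1.25 CPM in vivo, 0.519 CPM in the serum condition and 0.750 CPM in the serum-free condition. Embryos of the serum condition had between 11735 and 14732 genes with a count and in vivo derived embryos between 13136 and 14381, and after subtraction of the condition means SFN and PERP correlated with that number at 0.61 and 0.63. The part of trophectoderm content and of gene detection in the differences of SFN and PERP was not tested.

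Markers of other cell types were examined in the same embryos. Of all genes tested, 13.8% were called between in vivo derived embryos and the serum condition. The shares were 2.2% against the serum-free condition and 8.91% between the culture conditions. Thus 1 called marker of 5 against the serum condition is near the background. Of 5 inner cell mass markers tested against the serum condition 1 was called, SOX2, which was lower in vivo, and POU5F1 lay in the other direction without being called, with 214 ± 19.7 CPM in vivo and 147 ± 53.9 CPM in the serum condition (SD, n = 8). Of 6 tested in the serum-free against the serum condition 1 was called, KLF4, which was lower without serum, and the summed level of 8 such markers was between 359 and 498 CPM in vivo, between 352 and 810 CPM in the serum condition and between 259 and 501 CPM in the serum-free condition. Of 5 primitive endoderm markers tested against each culture condition 1 was called, PDGFRA, which was higher in vivo in both comparisons. LAMB1 lay in the other direction and was not called, with 103 ± 32.4 CPM in vivo, 154 ± 69.7 CPM in the serum condition and 165 ± 40.7 CPM in the serum-free condition (SD, n = 8). The sum of 9 endoderm markers, of which PDGFRA made up 72.5% in vivo, was between 429 and 719 CPM in vivo, between 47.4 and 475 CPM in the serum condition and between 274 and 715 CPM in the serum-free condition. The 12 oocyte markers summed to between 2.24 and 51.9 CPM in vivo and between 3.06 and 258 CPM in the serum condition. In the serum-free condition they summed to between 14.6 and 674 CPM. BTG4, the 1 oocyte marker tested, was called there as higher than in either other condition. It reached the count limit through the serum-free condition alone, where its lowest embryo had 21 counts, so a call in the other direction was unlikely. The means of the untested markers lay in both directions between the culture conditions. The mean and median levels of MDM2 were highest in the serum-free condition. For SESN1 the mean was highest there and the median was not. Within that condition C4, the embryo with the most MDM2 (168 CPM), had 7.03 CPM of BTG4. C1, the embryo with the most BTG4, had 79.7 CPM of MDM2. For SESN1 the ends of the range matched those of BTG4. C1 also had the most SESN1 (37.5 CPM), and C10 and C4 had the least of both genes (6.44 CPM of SESN1 in C10). C3, with the next most SESN1 after C1, had the least BTG4 after C10 and C4. The 9 cumulus and granulosa markers summed to at most 51.8 CPM in any embryo. The 8 leukocyte markers summed to between 13.6 and 38.2 CPM in vivo, between 4.32 and 43 CPM in the serum-free condition and between 27.6 and 114 CPM in the serum condition, where CSF1R was called as higher than in vivo while PTPRC, the defining leukocyte gene, had a mean of 0.515 CPM. CSF1R was the 1 leukocyte marker tested there and reached the count limit through the serum condition alone, as A1 had 14 counts. It also made up most of the sum in the serum condition, with 108 CPM in B2. The 5 endometrial markers summed to at most 8.41 CPM in vivo and 13.1 CPM in the serum-free condition, and to 116 CPM in B2 and at most 19 CPM in the other embryos of the serum condition. In B2 the sum was almost wholly DCN, with 111 CPM, and MUC1 had 0 CPM in every embryo of the serum condition. B2 also set the upper limits of the serum condition for the oocyte markers, where the next embryo had 46.1 CPM, and for the leukocyte markers, where the next had 82.2 CPM. The part of these in the results for the 8 genes was not tested.

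Of the 21 genes listed for regulators of p53, 15 were tested against the serum condition and 4 were called, beside 13.8% of all genes tested. USP7, which removes ubiquitin from p53 and MDM2, had 47 ± 10.2 CPM in vivo, 114 ± 75.5 CPM in the serum condition and 46 ± 17.8 CPM in the serum-free condition (SD, n = 8). It was lower in vivo than in the serum condition, with a log2 fold change of -1.27 ± 0.31 (edgeR adjusted p = 0.0055), and lower in the serum-free than in the serum condition, with -1.30 ± 0.35 (edgeR adjusted p = 0.0206). Of the other 3 called genes, which encode proteins that bind or phosphorylate p53, 1 was higher in vivo and 2 were higher in the serum condition. USP7 did not have the smallest adjusted p-value of the 4. The median of the 15 was -0.41. Of the damage kinases, ATM had 55.8 ± 15 CPM in vivo, 69 ± 30 CPM in the serum condition and 60.3 ± 19.5 CPM in the serum-free condition (SD, n = 8). CHEK1 was lower in vivo than in the serum condition with a log2 fold change of -0.58 ± 0.15 (edgeR adjusted p = 0.00726), which did not reach 2-fold. Between the serum-free and the serum condition 2 of 16 tested were called, both lower without serum, beside 8.91% of all genes tested. Against the serum-free condition 0 of 16 were called by edgeR's test, beside 2.2% of all genes tested.

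Other targets of p53 moved in both directions. Of all genes tested, 13.8% were called against the serum condition, 2.2% against the serum-free condition and 8.91% between the culture conditions. Of 10 tested genes of the cell cycle and repair, 4 were called against the serum condition. DDB2, which recognises ultraviolet damage, and CMBL, a hydrolase, were higher in vivo, with log2 fold changes of 1.70 ± 0.51 (edgeR adjusted p = 0.0185) and 2.01 ± 0.70 (edgeR adjusted p = 0.0386). PLK2 and PLK3, which encode polo-like kinases, were higher in the serum condition, with -1.51 ± 0.51 (edgeR adjusted p = 0.0314) and -2.10 ± 0.41 (edgeR adjusted p = 0.00141). The median of the 10 was -0.02. Of 5 tested genes of cell death, SHISA5 was called, as higher in vivo by 1.32 ± 0.49 on the log2 scale (edgeR adjusted p = 0.0489), and BAX had 34.2 ± 8.09 CPM in vivo, 31.5 ± 14.5 CPM in the serum condition and 45.5 ± 17.6 CPM in the serum-free condition (SD, n = 8). The median of the 5 was 0.13. DDB2, CMBL and SHISA5 reached the count limit through the in vivo derived embryos alone, and PLK3 through the serum condition alone. Each was called as higher in the group that admitted it, so these directions were favoured by the limit. Against the serum-free condition 0 of 11 and 0 of 6 genes of these lists were called by edgeR's test. In the serum-free against the serum condition PLK2 was called, as lower without serum by -1.79 ± 0.50 (edgeR adjusted p = 0.0233), and 0 of 6 cell death genes were.

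**Figure D5:**
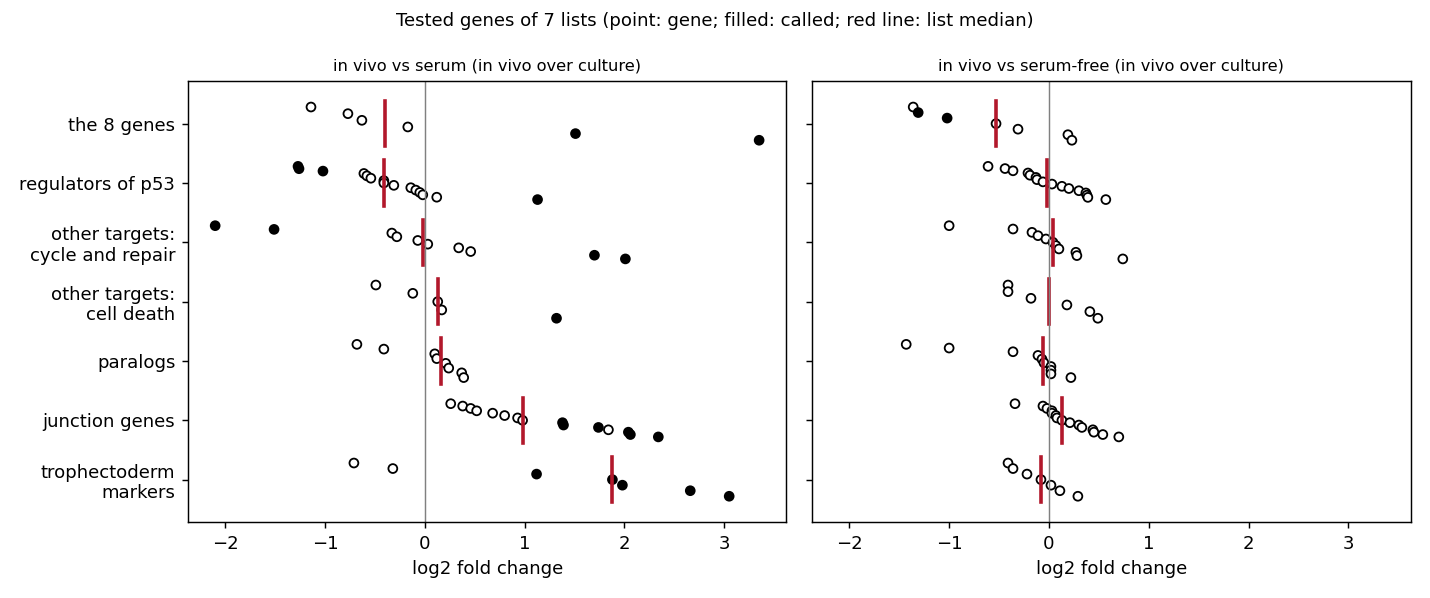
Log2 fold changes (horizontal axis) of the tested genes of 7 lists, in vivo derived embryos against the serum condition (left) and against the serum-free condition (right) (points: genes, filled: called, red lines: list medians). Against the serum condition the medians of the junction genes (0.98) and trophectoderm markers (1.88) lie to the right of those of the p53 lists, and against the serum-free condition the called points are MDM2 and SESN1.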

How the data were processed

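Total RNA of 24 single early blastocysts was amplified with a kit that does not keep strand, so reads of a gene and of an antisense neighbour cannot be told apart. The authors trimmed and mapped the fragments to the bovine genome build UMD 3.1 and deposited raw counts of fragments that mapped uniquely to annotated exons, summed by gene and not normalized. All value columns were matched to an embryo by name (0 without a sample). No pair of embryos had identical counts, and the counts of DDX3Y matched the sex labels of all embryos.

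The study's methods name edgeR's exact test. Here edgeR 4.0.16 in R 4.3.3 was used with TMM, the quasi-likelihood test and Benjamini-Hochberg adjustment over all genes tested, and each fit held the compared groups alone. Serum-free against serum was added because the groups allow it. Standard errors are approximate, from each fold change and its F statistic. The alternatives were edgeR's exact test, DESeq2 1.42.0, DESeq2's size factors, count limits of 1 in any embryo or of 15 in every embryo, one fit over the 24 embryos, sex as covariate, the replicate number as block, the embryos of that block without it (added after the data were seen), and leaving out each embryo. Likeness was the Pearson correlation of log2(CPM + 1) of the deposited counts, with a pseudocount of 1. Outlying embryos were sought with Dixon's test.

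The members and gene lists were chosen with earlier results of these data known. Genes named beside the 8 members are called genes of the lists, the 5 genes most like a called member, and genes singled out after their values were seen (MDM4, SESN2, SESN3, CDKN1B, GADD45B, GADD45G, the YWHA genes, ATM, CHEK1, BAX, CDX2, TEAD4, TFAP2C, DSC3, PKP1, POU5F1, LAMB1, PTPRC, DCN and MUC1). Symbols were matched exactly as listed, and those without a match were not used here. Results for some genes are not reported here. In data simulated for each comparison with 200 genes changed 4-fold, the test recovered 91.5% of them between in vivo derived embryos and the serum condition (7339 genes run), 98% against the serum-free condition (7314 genes run) and 90.5% between the culture conditions (7181 genes run). It recovered 48% in female embryos against the serum condition (8138 genes run) and 33% in the interaction of sex and serum culture (8446 genes run). Of the calls, 6.8% and 7.04% were false in these 2, and 3.17%, 2% and 2.16% in the comparisons of all embryos. In those comparisons every member tested except SFN changed by less than 4-fold, and smaller changes were not simulated.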

Additional observations from a re-analysis of the deposited data

Results flagged for a closer look

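Dixon's test at the 95% level was applied to each of the 8 genes in every group of 4 to 10 embryos, 48 groups in all, and 9 held an embryo far from the rest. Single-sex groups lie inside their conditions, so the same embryo can be flagged for a gene in both. The test assumes normal values and was run on CPM, so a chance rate of about 1 in 20 may not hold. In the serum-free condition C7 was the highest embryo for both SFN, with 286 CPM against 129 CPM in the next, and PERP, with 824 CPM against 480 CPM in the next. Among the 5 male embryos of that condition C7 also stood apart for SFN, with 286 CPM against 51.1 CPM. For CDKN1A, C6 stood apart with 25.8 CPM, both among all embryos of the serum-free condition, where the next had 12 CPM, and among the male ones, where the next had 8.23 CPM. For GADD45A, B2 had 96.6 CPM and the next embryo of the serum condition, also the next female one, had 26.7 CPM. B2 had the lowest levels of SFN and PERP of all embryos. For ZMAT3, B8 had 5.59 CPM against 1.91 CPM in the next embryo of the serum condition, a difference of 31 against 11 counts. For CCNG1, A8 had 821 CPM and the next male in vivo derived embryo had 650 CPM. These are values of single embryos and have no replicate.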

How the results depend on the processing

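SFN and PERP were called in in vivo derived embryos against the serum condition in each of the 16 fits that left out 1 embryo (log2 fold changes of 3.14 to 3.67 and 1.40 to 1.59) and in every other alternative in which they were tested. With at least 15 counts demanded in every embryo SFN was not tested, so 1 of the 8 genes was called in that comparison, in the serum-free against the serum condition, in male embryos against the serum condition and, as PERP was called then, in female embryos. In female embryos against the serum condition edgeR's exact test, DESeq2 and the fit over 24 embryos each called 2. In in vivo derived embryos against the serum-free condition 0 of the 8 genes were called with the limit of 1 count and with the fit over 24 embryos, and 1 with sex as covariate. In male embryos of that comparison 2 were called by the exact test, by DESeq2 and with 15 counts in every embryo, and 0 with the fit over 24 embryos. Leaving out 1 embryo gave between 0 and 2 genes there and for all embryos of that comparison, between 0 and 2 in female and 2 and 3 in male embryos and 2 and 3 in all embryos against the serum condition.

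Embryos of different conditions share replicate numbers, but same-numbered embryos did not deviate together (correlations of -0.15 to 0.09), so the numbers do not pair them. With the replicate block, over 7 shared numbers, 0 of the 8 genes were called against the serum-free condition and 0 between the culture conditions, where SFN had 3.30 (edgeR adjusted p = 0.0575) and PERP 1.25 (edgeR adjusted p = 0.0666), and the number of all genes called fell from 640 to 29. SESN1 was called against the serum condition under the block, with -1.45 (edgeR adjusted p = 0.0239), and also without it in the same embryos. It turned GADD45A to 0.11 against the serum condition, SFN to 0.19 against the serum-free condition and CDKN1A to 0.34 between the culture conditions.

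Other changes of sign were of genes that were not called. GADD45A had 0.04 with sex as covariate against the serum condition. Male over female within the serum condition, CCNG1 had 0.02 with the limit of 1 count and 0.01 in the fit over 24 embryos, and MDM2 had -0.03 with 15 counts in every embryo. Over the fits that left out 1 embryo, the log2 fold changes that took both signs were as follows. Against the serum condition GADD45A had -0.33 to 0.43 in all and -0.82 to 0.27 in female embryos. Against the serum-free condition SFN had -0.46 to 0.36 in all, -0.49 to 1.13 in male and -0.83 to 0.29 in female embryos, GADD45A -0.08 to 0.27 and PERP -0.08 to 0.36 in male embryos, and SESN1 -1.08 to 0.12 in female embryos. Between the culture conditions GADD45A had -0.53 to 0.21 and SESN1 -0.07 to 0.35. Male over female, CCNG1 had -0.04 to 0.26 and GADD45A -0.09 to 0.35 in vivo, MDM2 -0.25 to 0.48 and CCNG1 -0.32 to 0.21 in the serum condition, and SFN -1.18 to 0.93, SESN1 -0.19 to 1.03 and PERP -0.16 to 0.26 in the serum-free condition. In the interaction with serum CCNG1 had -0.19 to 0.34 and SESN1 -0.89 to 0.37, and in that with serum-free culture MDM2 -0.86 to 0.05, SFN -0.52 to 1.57 and GADD45A -0.42 to 0.01.

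The number of all genes called moved by over 1.5 times in some alternatives. With 15 counts in every embryo it was 544 in place of 1011 against the serum condition, 94 in place of 161 against the serum-free condition and 366 in place of 640 between the culture conditions, and the fit over 24 embryos gave 90 and 975 in the last pair. Without C7 it was 393 between the culture conditions. In female embryos against the serum condition it was 34, and 467 with the exact test, 585 with DESeq2, 58 with the limit of 1 count, 461 with the fit over 24 embryos and 446 without B2, while it fell to 2 without A6, A7 or B4, 4 without B6, 7 without A9 or B3 and 15 without B8. The replicate block gave 82 against the serum-free condition. In male embryos against the serum condition it was 1035, and between 658 (without B7) and 1755 (without B1) when 1 embryo was left out. The other counts within a sex or between the sexes, of 11 to 74, ranged from 0 to 232 over the alternatives. Groups of 3 embryos, low counts (SFN in the serum condition, CDKN1A and ZMAT3) and the absence of batch labels limit these results, and the causes of the changes between settings were not tested.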

Other observations

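SFN and PERP were also expressed relative to KRT18 of the same embryo, a ratio chosen after the data were seen. Per 1000 counts of KRT18, SFN had 34.3 ± 10.5 in vivo, 23.2 ± 22.2 in the serum condition and 40.3 ± 13 in the serum-free condition (SD, n = 8). The medians of SFN were 35.4, 16.7 and 34.2. In the serum condition B4 had 76.3 and the next embryo, B6, had 25.1, while B2 and B7 rest on 1 and 3 counts of SFN. PERP had 322 ± 141, 1200 ± 727 and 356 ± 158 in the same order. Since KRT18 was chosen for its likeness to SFN and its own change was known, these ratios are a description and were not tested. A ratio within a library shows unequal change and not which of the genes changed.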
